A study of Mus musculus with 6 samples.

Results

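Iron and 2-oxoglutarate dependent oxygenases of chromatin, nucleic acids and proteins were read in mouse megakaryocytic-erythroid progenitors (MEP) as 37 genes chosen by symbol from the 52459 genes of the deposited counts table. They are 17 JmjC genes grouped here as histone lysine demethylases, the 3 TET genes, 9 genes of the AlkB family with Fto, and 8 hydroxylases of proteins. The oxygen-sensing hydroxylases Egln1, Egln2, Egln3 and Hif1an were left out. All 37 passed the filter on low counts, as did 13453 genes in all. The study compared wild-type (WT) mice with Tmprss6-/- (KO) mice, a model of iron deficiency according to the series title. Tmprss6 is a liver protease that holds down hepcidin, the hormone that blocks iron release into blood, and without it little iron reaches the marrow. Each genotype gave 3 libraries, named here WT 1 to WT 3 and KO 1 to KO 3, and each library was made from the sorted cells of 3 pooled mice. The sort kept lineage-depleted marrow cells that carried cKit and CD150 and lacked Sca, FcgRI/II, CD105 and CD41. The sources used here give no age, strain or sex, and do not say how the deletion was made.

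These enzymes share a chemistry. A ferrous ion in the active site binds 2-oxoglutarate and molecular oxygen, and the oxidised product is a hydroxyl group, which on a methylated lysine, cytosine or adenine leads to loss of the methyl group. The JmjC group is named for action on methylated histone lysines, which was not tested here for each gene. TET enzymes oxidise methylated cytosine in DNA, and AlkB enzymes act on alkylated or methylated bases of DNA, RNA and tRNA. The hydroxylases act on collagen, ribosomal and other proteins. Because iron is a cofactor, enzyme activity may depend on iron while the transcript does not, and RNA-seq reads only the transcript.

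The promoters of 4 genes are shown, which were picked from the results of these data. Kdm5b and Kdm6a were the 2 of 37 members called lower in KO when the libraries numbered 1 and 3 were compared alone. In that fit, chosen after the data were seen, 0.604% of all genes were called lower, and the calls were not kept under every setting. P4ha1 and P4ha2 were the 2 of 37 members higher in KO in every pair of libraries, as were 11.5% of all genes. Neither was called. The sequences are from RefSeq on GRCm38.p6, from the 250 bases before each annotated start, all on the plus strand, with capitals marking ACGTG or GCGTG on either strand, the core letters bound by hypoxia-inducible factors (HIF).
Kdm5b: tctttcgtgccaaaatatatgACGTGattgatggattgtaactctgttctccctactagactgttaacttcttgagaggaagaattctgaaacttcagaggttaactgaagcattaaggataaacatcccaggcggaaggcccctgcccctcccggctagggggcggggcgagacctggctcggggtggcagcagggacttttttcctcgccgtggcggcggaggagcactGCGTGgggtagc
Kdm6a: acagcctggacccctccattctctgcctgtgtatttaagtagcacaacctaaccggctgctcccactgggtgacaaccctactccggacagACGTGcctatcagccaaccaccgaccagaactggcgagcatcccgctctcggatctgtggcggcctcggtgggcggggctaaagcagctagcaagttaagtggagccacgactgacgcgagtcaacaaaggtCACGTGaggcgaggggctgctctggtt
P4ha1: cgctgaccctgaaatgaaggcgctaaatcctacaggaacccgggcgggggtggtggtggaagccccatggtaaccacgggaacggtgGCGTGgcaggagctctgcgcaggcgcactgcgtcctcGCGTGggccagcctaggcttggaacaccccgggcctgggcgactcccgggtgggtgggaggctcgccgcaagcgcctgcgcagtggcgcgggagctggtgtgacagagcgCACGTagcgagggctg
P4ha2: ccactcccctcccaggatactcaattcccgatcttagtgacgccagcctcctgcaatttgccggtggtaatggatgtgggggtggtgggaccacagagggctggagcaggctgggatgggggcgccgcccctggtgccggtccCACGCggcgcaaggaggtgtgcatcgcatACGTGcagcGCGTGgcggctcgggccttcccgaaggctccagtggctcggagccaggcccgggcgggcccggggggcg
The Kdm5b window is chr1:134559928-134560170 (7 further bases that lie in an annotated exon were left out), with matches that begin 229 and 19 bases before the start. The Kdm6a window is chrX:18162325-18162574, with matches at 159, 27 and 26 bases, where the last 2 overlap in a single palindrome read on both strands. The P4ha1 window is chr10:59323046-59323295, with matches at 163, 126 and 16 bases. The P4ha2 window is chr11:54100674-54100923, with matches at 107, 78 and 69 bases, and it lies within the span of the gene in the counts table but outside its annotated exons. RefSeq promoters were matched for 31 of the 37 members (those of Kdm2a, Kdm3b, Kdm4b, Kdm5a, Kdm6b and Asph were not matched). The HIF core letters were found in 19 of the 31 windows (61.3%), against 38.6% of 32851 RefSeq promoters, and the erythroid GATA letters AGATAA or TGATAA, on either strand, in 3 (9.68%) against 16.6%. Each of the 31 windows came from the first listed promoter of a member. The comparison took every listed promoter, whether or not its gene passed the filter. The 31 windows held 39.6% to 85.6% G and C, a base composition that was not matched in the comparison. A match of letters is a description of the sequence, not of binding.

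Libraries of 1 genotype differed widely. Total counts ran from 13402209 to 22986837, so 3 counts, taken as the detection floor, equalled 0.138 to 0.220 CPM (counts scaled to a common library size, here with TMM factors). All 10 MEP, erythroid and megakaryocyte markers were present in each library, with summed levels of 2080 to 4399 CPM in WT and 2275 to 3774 CPM in KO. KO 2 stood apart: all 10 eosinophil, basophil and mast cell genes, all 9 neutrophil precursor genes, all 8 macrophage genes, all 8 globin and late erythroblast genes and all 8 lymphoid and plasma genes were highest there. The summed eosinophil, basophil and mast cell level was 7272 CPM in KO 2, 111 to 717 CPM in WT and 39.4 to 225 CPM in the other KO libraries. The libraries numbered 3 of both genotypes held Xist and 0 counts of the Y-linked Kdm5d and Uty, as female mice give, and the libraries numbered 1 and 2 held Kdm5d and Uty and at most 1 count of Xist. In bulk RNA, fewer cells of a type and less RNA per cell cannot be told apart.

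Across all 6 libraries no member passed the test. The edgeR quasi-likelihood test called 0 of the 37 members and 0% of the 13453 genes (1.74% of genes, and 0 members, at an unadjusted p under 0.05). DESeq2 called 6 genes and limma voom 0, with 0 members in either. Of the members, 12 were higher and 25 lower in KO, with a median log2 fold change of -0.17, while 49.3% of all genes were higher with a median of -0.0048. By family, 3 of 17 JmjC genes, 1 of 3 TET genes, 3 of 9 AlkB genes and 5 of 8 protein hydroxylase genes were higher. The WT and KO libraries did not overlap for 1 member, P4ha2, against 4.03% of genes, a share that 1 of 37 does not exceed. Leaving out WT 3 turned the balance to 23 members higher of 37, and leaving out KO 1 turned it to 20, while each of the other 4 libraries left out gave 12 to 14. The JmjC count of 3 higher of 17 became 14 without WT 3 and 11 without KO 1, and stayed at 3 under each other scaling and filter. The median JmjC gene lay 0.72 log2 units above its 6-library mean in WT 3 and at -0.80 in KO 1.

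**Figure D1:**
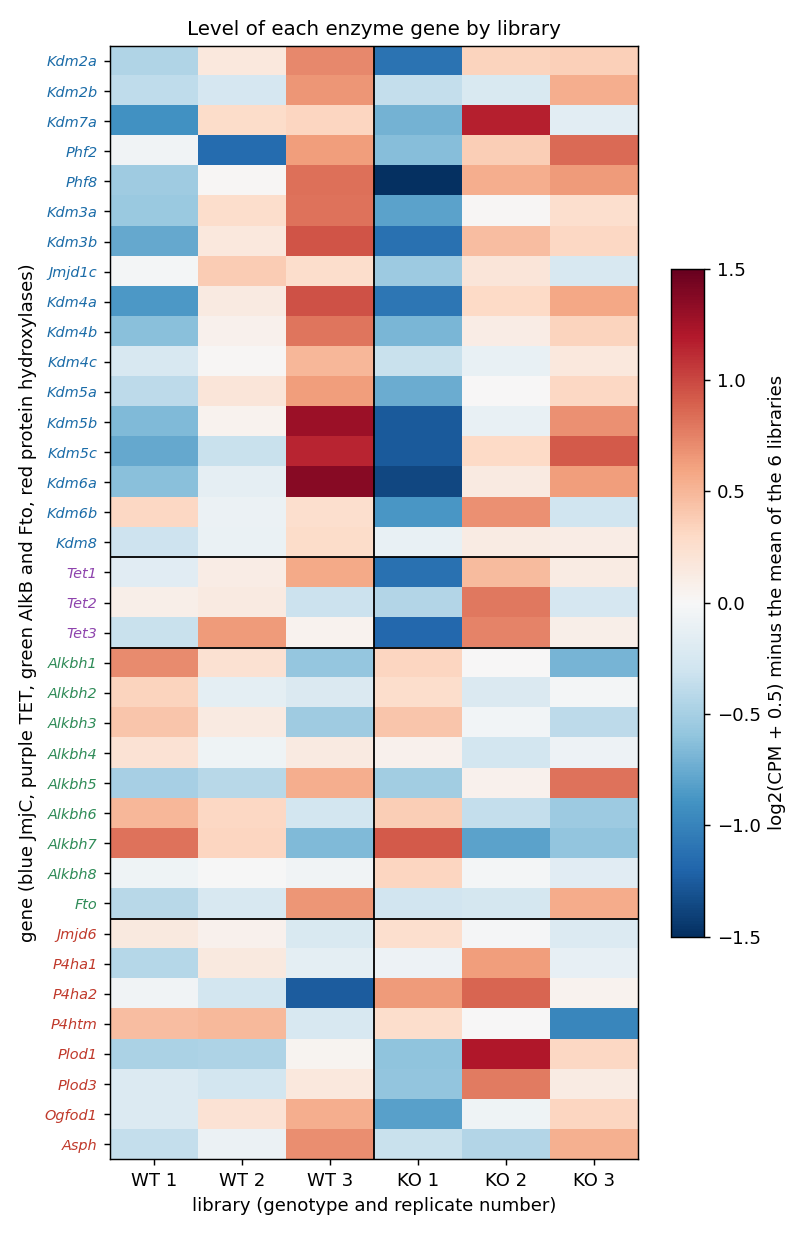
Each row is 1 of the 37 enzyme genes and each column a library, coloured by log2(CPM + 0.5) minus the mean of that gene over the 6 libraries (red above, blue below). The JmjC rows are mostly blue in WT 1 and KO 1 and red in WT 3, and P4ha2 is the row whose WT and KO columns do not overlap.

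By mean level per kilobase of the longest annotated transcript in WT, AlkB genes were at the top and the TET genes were low. The AlkB genes reached down to 5.36 CPM per kb (Alkbh2), below several demethylases of histones. Ranks across lengths also depended on the library. The median gene of up to 2000 nucleotides lay at 0.46 log2 units from its 6-library mean in WT 1 and at -0.43 in WT 3. Over 6000 nucleotides these values were -0.41 and 0.42. The part of length in the ranking was not tested. In WT, Alkbh7, a mitochondrial protein of the family, had the highest mean at 49.2 ± 23.2 CPM per kb (SD, n = 3), followed by Fto, an eraser of methyl marks on RNA, at 39.1 ± 16.9. Alkbh3, which repairs alkylated DNA and RNA, was at 32.5 ± 10.2, Asph at 31.2 ± 12.5 and Alkbh1 at 30.6 ± 12.9 CPM per kb. These neighbours did not differ beyond their spread. Among the demethylases of histones, Kdm5b led with 23.7 ± 16.4 CPM per kb and Kdm3a with 22 ± 9.89, and Kdm7a and Kdm6b were lowest with 1.12 ± 0.475 and 0.533 ± 0.0858. Tet2 and Tet3 had 1.91 ± 0.324 and 1.98 ± 0.700 CPM per kb and Tet1 had 0.977 ± 0.265, and P4ha2 was last of all members with 0.123 ± 0.11. Within subfamilies 1 gene could dominate: of the summed level per length of Kdm6a and Kdm6b, which both act on lysine 27 of histone H3, Kdm6a made up 88.4% to 97.0% in every library.

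**Figure D2:**
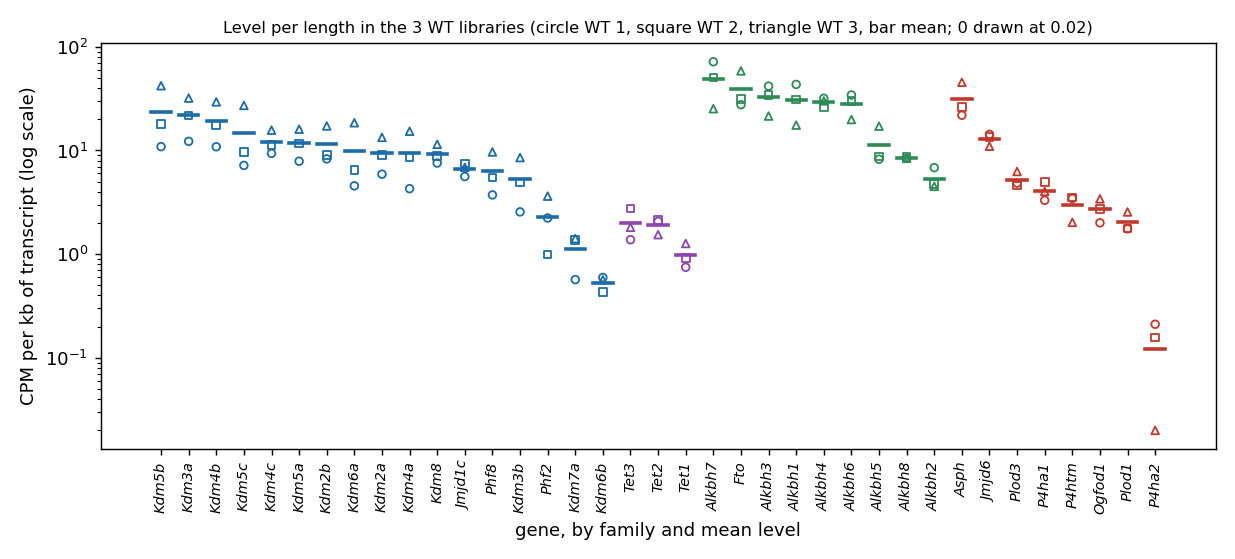
Levels of the 37 genes in the 3 WT libraries, in CPM per kb of the longest annotated transcript on a log axis, ordered within each family, with a bar at the mean and 1 symbol per library (a value of 0 is drawn at 0.02). Alkbh7 leads at 49.2 and P4ha2 is lowest at 0.123.

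Kdm5b, which removes methyl groups from lysine 4 of histone H3, was lower in KO in each pair of libraries with the same number, but its genotypes overlapped widely. Its level (chromosome 1, 134560171 to 134635285) was 94.9, 156 and 367 CPM in WT 1 to 3 and 62.7, 139 and 243 CPM in KO 1 to 3. Both libraries numbered 3 were at the top, and the KO library numbered 3 was above the WT libraries numbered 1 and 2. Over 6 libraries the log2 fold change was -0.48 (standard error 0.61, adjusted p = 1.00 by edgeR). Its relative Kdm5a, which acts on the same lysine, averaged 130 ± 44.7 CPM over the WT pools and 107 ± 37.2 over the KO pools (SD, n = 3) and was lower in 3 of 3 pairs as well.

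Kdm3a, a lysine 9 demethylase, gave 59.4, 106 and 155 CPM in WT and 50.3, 88.7 and 105 CPM in KO, with overlapping groups (chromosome 6, 71588972 to 71632990). Its log2 fold change was -0.40 (standard error 0.42, adjusted p = 1.00 by edgeR). Jmjd1c, of the same subfamily, gave 48.3, 64.4 and 59.2 CPM in WT and 33.7, 56.2 and 41.7 CPM in KO (chromosome 10, 67096125 to 67256326). Only KO 2 reached the WT range, and the log2 fold change was -0.38 (standard error 0.29, adjusted p = 1.00 by edgeR). Jmjd1c had the smallest p of the JmjC genes, and unlike the other 2 its highest library was WT 2.

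None of the remaining autosomal JmjC genes was called. Kdm2a and Kdm2b, which bind unmethylated CpG islands, had log2 fold changes of -0.21 and -0.04, and Kdm4a, Kdm4b and Kdm4c, demethylases of lysines 9 and 36, had -0.17, -0.22 and -0.21. Kdm3b stood at -0.24 and Kdm6b at -0.21. Kdm7a and Phf2, which act on lysine 9, and Kdm8 were the 3 JmjC genes above 0, at 0.34, 0.35 and 0.07, and Kdm7a was highest in KO 2. Each of these estimates was smaller in size than its standard error, which was for example 0.47 for Kdm2a, 0.55 for Kdm3b and 0.57 for Phf2.

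Deviations from the genotype means correlated at 0.53 within number 1 and 0.63 within number 3, but only at 0.16 within number 2. Correlations between different numbers are not given here. The genotypes were also compared within numbers, a pairing taken from these data and not from the labels. Of the 37 members, 10 were lower in KO in 3 of 3 pairs, as were 13.3% of all genes tested, and 2 were higher in 3 of 3, as were 11.5%. The 10 were Kdm3a, Jmjd1c, Kdm4c, Kdm5a, Kdm5b, Alkbh1, Alkbh4, Alkbh6, P4htm and Ogfod1, and the 2 were P4ha1 and P4ha2. Among the JmjC genes, 14 of 17 were lower in pair 1 (median log2 difference -0.36), 5 of 17 in pair 2 (median 0.18) and 16 of 17 in pair 3 (median -0.38). Over all genes the median differences were -0.01, -0.00 and -0.01. With the replicate number as a block, edgeR called 0 members and 0% of genes. Kdm3a, Jmjd1c and Kdm5b were lower at an unadjusted p under 0.05, where 1.36% of genes were (block log2 fold changes -0.35, -0.41 and -0.45, edgeR adjusted p = 0.995 for each).

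**Figure D3:**
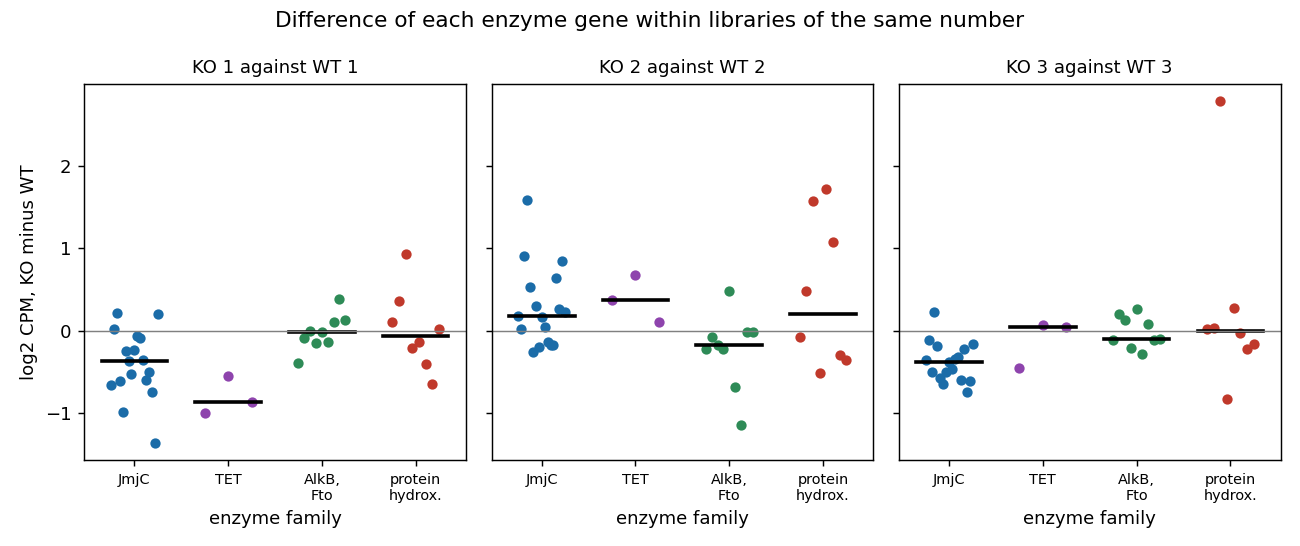
Log2 CPM of KO minus WT for each enzyme gene (points), by family, in the 3 pairs of libraries of the same number, with a black bar at the family median. The JmjC medians are -0.36, 0.18 and -0.38 in pairs 1, 2 and 3, so pairs 1 and 3 point down and pair 2 points up.

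Pairs 1 and 3 were fitted alone after the data were seen, because KO 2 carried transcripts of other blood cells. With the replicate block, this fit had only 2 pair differences per gene. Its p-values measure how closely those differences agree, with variance borrowed from other genes, and not the spread between pools. This fit called 2 members lower, Kdm5b and Kdm6a, where 0.604% of 13572 genes were called lower, and 0 members higher, where 0.258% of genes were. Kdm5b fell by 0.60 on the log2 scale (standard error 0.11, adjusted p = 0.0158 by edgeR), with differences of -0.60 in pair 1 and -0.60 in pair 3. Kdm6a fell by 0.75 (standard error 0.14, adjusted p = 0.0150 by edgeR), with differences of -0.74 and -0.75. In pair 2 the same differences were -0.17 for Kdm5b and 0.27 for Kdm6a. At an unadjusted p under 0.05, 12 members were lower, where 7.74% of genes were, and 0 were higher, where 5.45% were. The 12 were Kdm2a, Phf8, Kdm3a, Kdm3b, Jmjd1c, Kdm4b, Kdm5a, Kdm5b, Kdm5c and Kdm6a with Tet1 and Alkbh1. Of the JmjC genes 16 of 17 were lower (median -0.35), with Kdm8 at 0.02 as the exception.

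Both calls depended on how the libraries were scaled and on the replicate block. Neither was kept with upper quartile scaling (edgeR adjusted p = 0.0839 for Kdm5b and 0.0843 for Kdm6a), without a scaling factor (0.0822 for both) or without the block (1.00 for both), and both were kept with no filter, a stricter filter, DESeq2 and limma voom. Over the 9 settings the adjusted p ran from 0.000903 to 1.00 for Kdm5b and from 0.00454 to 1.00 for Kdm6a.

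Transcripts of other cells and transcript length differed between these 4 libraries as well. In pairs 1 and 3 edgeR called 5 of 9 eosinophil, basophil and mast cell genes lower and 4 of 8 globin and late erythroblast genes higher. The first list summed to 717 and 111 CPM in WT 1 and WT 3 and to 225 and 39.4 CPM in KO 1 and KO 3. Prg3, Epx, Ear1 and Mcpt8 were at 0 in KO 3. Cma1, which was not tested, was at 0 in KO 3 and also in WT 3 and KO 1. The globin list summed to 226 and 132 CPM in WT and 343 and 370 CPM in KO. Of the other lists of cell markers, 2 of 9 neutrophil precursor genes were called lower, Ngp and Ltf, as was 1 of 5 stroma genes tested, Col1a2, and 1 of 7 lymphoid and plasma genes tested was called higher, Jchain. The immunoglobulin joining chain Jchain was at 0.231 and 0.498 CPM in WT 1 and WT 3 and at 1.59 and 124 CPM in KO 1 and KO 3. The lymphoid and plasma list summed to 175 and 45.0 CPM in WT 1 and WT 3 and to 144 and 709 CPM in KO 1 and KO 3, so KO 3 stood apart there. Of the 8 macrophage genes, edgeR called 0, with 0 at an unadjusted p under 0.05, but they were not level. All 8 were lower in pair 1 (median log2 difference -0.94) and 0 were lower in pair 3 (median 2.71). They summed to 159 and 25.6 CPM in WT 1 and WT 3 and to 73.4 and 166 CPM in KO 1 and KO 3. The neutrophil precursor list summed to 378 and 81.3 CPM and to 120 and 279 CPM in the same order. Of the 10 MEP, erythroid and megakaryocyte genes edgeR also called 0. At an unadjusted p under 0.05, Kit and Gata2 were lower there (log2 fold changes -0.36 and -0.30) and Tal1 was higher (0.30). Kit and Gata2 were highest in WT 3 and lower in KO in each pair of libraries. The part of other cells in the JmjC values was not tested. The pools also differed by transcript length in a way that moved with these results. The median longest transcript was 6359 nucleotides for the JmjC genes and 10904 for TET, against 1773 for the AlkB genes and 3036 over all genes tested. Genes over 6000 nucleotides lay at a median log2 deviation of -0.41 in WT 1 and -0.70 in KO 1, but at 0.42 in WT 3 and 0.26 in KO 3. In pairs 1 and 3, 21.9% of these long genes were lower at an unadjusted p under 0.05, as were 8 of the 14 members of that length. For 4000 to 6000 nucleotides the share was 11.8%, and 3 of 13 members were lower.

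The rank correlation of length with the log2 fold change of pairs 1 and 3 was -0.50 over the 37 members and -0.26 over all genes. These points share the same 4 libraries and carry no test. When each library's trend with length was removed, 0 members were called lower, where 0.111% of 13561 genes were. Kdm5b then had -0.35 (edgeR adjusted p = 0.267) and Kdm6a -0.59 (edgeR adjusted p = 0.164), and 14 of 17 JmjC genes were still below 0 (median -0.21).

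**Figure D4:**
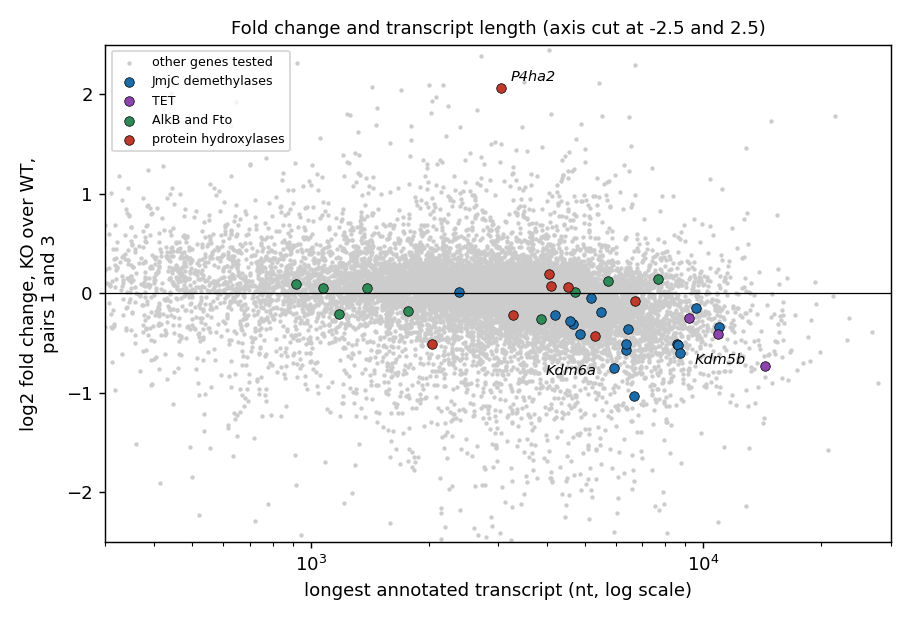
Log2 fold change of KO over WT in pairs 1 and 3 (vertical axis) against the longest annotated transcript in nucleotides (log axis), for the 37 enzyme genes by family over all other genes tested (grey). Long genes lie lower, and the JmjC and TET points follow the lower part of the grey cloud, with Kdm5b at -0.60 and Kdm6a at -0.75.

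The 3 X-linked demethylases followed the number of the library too. Kdm6a (chromosome X, 18162575 to 18279936), a lysine 27 demethylase that escapes X inactivation, gave 27.1, 38.4 and 110 CPM in WT and 16.1, 46.3 and 65.5 CPM in KO. Its groups overlapped, and the log2 fold change over 6 libraries was -0.46 (standard error 0.65, adjusted p = 1.00 by edgeR). Kdm5c, which acts on lysine 4 and also escapes X inactivation, gave 46.3, 62.8 and 175 CPM in WT and 32.8, 97.8 and 150 CPM in KO (chromosome X, 152233020 to 152274535). Between genotypes it differed by -0.02 on the log2 scale (standard error 0.65, adjusted p = 1.00 by edgeR). Its KO libraries lay on either side of the WT library of the same number.

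Phf8, a demethylase of lysine 9 and of histone H4, gave 23.7, 35 and 61.5 CPM in WT and 11.9, 50.5 and 54.1 CPM in KO (chromosome X, 151520672 to 151633859). Its groups overlapped, with a log2 fold change of -0.04 (standard error 0.59, adjusted p = 1.00 by edgeR). In WT the library numbered 3 stood at 3.21 times the mean of the other 2 for Kdm5c, 3.35 times for Kdm6a and 2.10 times for Phf8. The 14 autosomal JmjC genes showed a median of 1.83 with a range of 1.05 to 2.92, and Kdm5b on chromosome 1 was at the top of that range. In KO the same ratios were 2.30, 2.10 and 1.73, against an autosomal median of 1.49 with a range of 0.616 to 2.41. There Kdm5b, again at the top of the autosomal range, was above all 3 X-linked genes.

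The libraries numbered 1 and 2 also held the Y-linked copies of the X-linked genes. Kdm5d, the Y-linked copy of Kdm5c, added 8.68 to 28.2 CPM there, and Uty, the copy of Kdm6a, added 24.7 to 42.3 CPM. In CPM, without regard to length, Uty held 47.8% to 60.5% of the sum of Kdm6a and Uty in those libraries and 0% in the libraries numbered 3. The sum of Kdm6a and Uty was 64.1, 79.4 and 110 CPM in WT and 40.9, 88.6 and 65.5 CPM in KO. The sum of Kdm5c and Kdm5d was 59.0, 91.0 and 175 CPM in WT and 41.5, 124 and 150 CPM in KO. In WT 3 and KO 3, Kdm5c had 2464 and 2047 counts and Kdm6a 1544 and 891, while Kdm5d and Uty had 0. Reads of the X-linked genes were therefore not counted as the Y-linked copies there. Whether reads of the Y-linked copies were counted as the X-linked genes in the other libraries was not tested.

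**Figure D5:**
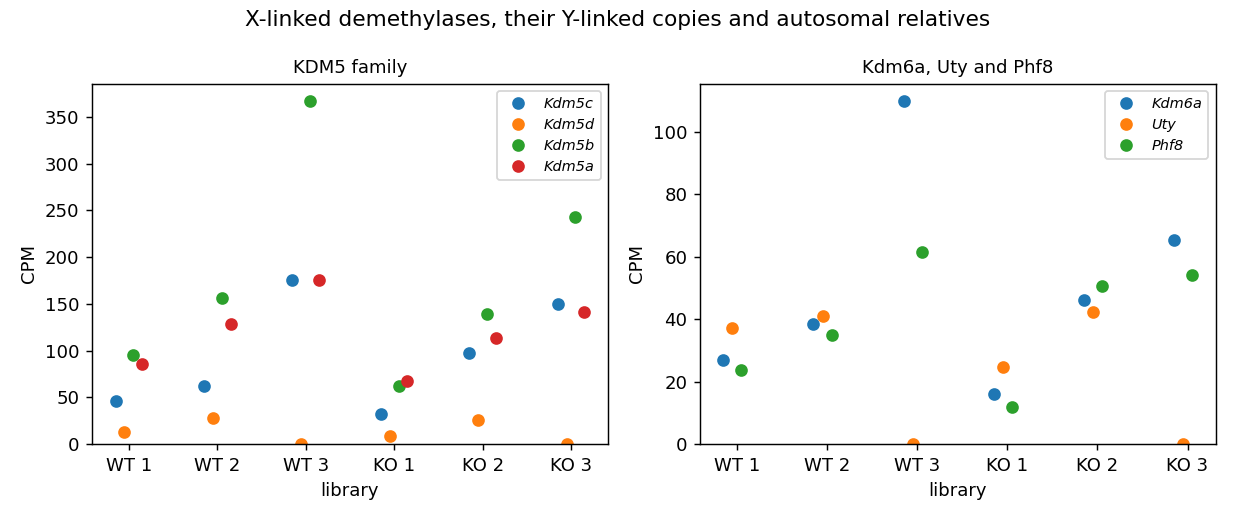
CPM in the 6 libraries (linear axis from 0) for the KDM5 genes (left) and for Kdm6a, Uty and Phf8 (right), 1 point per gene and library. Kdm5d and Uty are at 0 in WT 3 and KO 3, where Kdm5c and Kdm6a are highest, and the autosomal Kdm5b is also highest there with 367 and 243 CPM.

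The TET genes, which start the removal of cytosine methylation, were low, and each had its highest KO level in KO 2. Tet1 gave 10.7, 13.2 and 18.2 CPM in WT and 5.32, 17.1 and 13.3 CPM in KO (chromosome 10, 62804570 to 62908996). Tet2, whose loss drives clonal growth of blood stem cells, gave 19.0, 19.6 and 14.2 CPM in WT and 13, 31.2 and 14.8 CPM in KO (chromosome 3, 133463679 to 133545139). The genotypes overlapped for both genes, with KO 1 below every WT library and KO 2 the highest KO library. The log2 fold changes were -0.24 (standard error 0.48) for Tet1 and 0.16 (standard error 0.41) for Tet2 (edgeR adjusted p = 1.00 for both).

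Tet3 averaged 21.6 ± 7.63 CPM over the WT pools and 20.3 ± 12.0 over the KO pools (SD, n = 3). Tet2 and Tet3 were highest in KO 2, as 8 members were in all (23% of all genes were). There the macrophage genes summed to 1965 CPM, against 25.6 to 159 CPM in WT, and all 8 genes of that list had counts in every library. Other lists summed higher still in KO 2: eosinophil, basophil and mast cell genes to 7272 CPM, globin and late erythroblast genes to 5172 CPM and neutrophil precursor genes to 3387 CPM. The lymphoid and plasma list summed to 1044 CPM. Without KO 2, Tet2 turned to -0.34, and in pairs 1 and 3 all 3 TET genes were lower, with Tet1 at -0.73 (standard error 0.27, adjusted p = 0.243 by edgeR). The part of other cells in the TET values was not tested.

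The AlkB genes were nearly level between the genotypes in sum. The summed level of the 9 genes was 565 to 641 CPM in WT and 514 to 626 CPM in KO, and their median log2 fold change was -0.03. Alkbh7 gave 65.8, 46.5 and 23.2 CPM in WT and 70.8, 21.1 and 24.5 CPM in KO (chromosome 17, 56997339 to 56999322). Between genotypes it differed by -0.22 on the log2 scale (standard error 0.56, adjusted p = 1.00 by edgeR). Both libraries numbered 1 were at the top, where Kdm5b had its lowest levels, and the lowest library was WT 3 in WT and KO 2 in KO. Its transcript of 917 nucleotides was the shortest of the members.

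Alkbh6 gave 40.5, 35.4 and 23.5 CPM in WT and 36.8, 22 and 19.2 CPM in KO (chromosome 7, 30308717 to 30314304). It had the smallest p of the family, with a log2 fold change of -0.35 (standard error 0.36, adjusted p = 1.00 by edgeR), and its groups overlapped. Alkbh4, which acts on actin, gave 56.5, 46.7 and 53.4 CPM in WT and 50.8, 40.2 and 46.3 CPM in KO (chromosome 5, 136136146 to 136141615). Each KO library lay below the WT library of its number, yet KO 1 was above WT 2, and the log2 fold change was -0.19 (standard error 0.25, adjusted p = 1.00 by edgeR). Alkbh8, which modifies tRNA, averaged 65.2 ± 1.27 CPM over the WT pools and 70.0 ± 12.7 over the KO pools (SD, n = 3), so its WT libraries lay close together.

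Alkbh5 and Fto both remove methyl groups from adenine in RNA. Alkbh5 averaged 65.2 ± 28.7 CPM over the WT pools and 78.4 ± 36.6 over the KO pools, and Fto 184 ± 79.5 and 181 ± 65.1 (SD, n = 3). Their log2 fold changes were 0.27 and -0.02, and both were above the other libraries in the libraries numbered 3. Alkbh1, an eraser that acts on tRNA, averaged 118 ± 49.7 and 97.7 ± 32.9 CPM in the same order, and Alkbh2 and Alkbh3, which reverse alkylation damage, had log2 fold changes of 0.00 and -0.03. Of the 10 genes that write or read the RNA mark, 6 were higher in KO and 0 were called (median 0.04).

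P4ha2, a catalytic subunit of the prolyl 4-hydroxylase that prepares collagen for folding, was the member whose groups did not overlap. Its counts were 14, 7 and 0 in WT and 22, 27 and 10 in KO, which equal 0.646, 0.482 and 0 CPM and 1.35, 1.68 and 0.735 CPM (chromosome 11, 54100095 to 54131665). Every KO library was above every WT library, and WT 3 was under the floor of 3 counts. The log2 fold change was 1.68 (standard error 0.96, adjusted p = 1.00 by edgeR), and in pairs 1 and 3 it was 2.06 (standard error 1.08, adjusted p = 0.440 by edgeR). P4ha1, the main catalytic subunit of the same enzyme, averaged 16.6 ± 3.38 CPM over the WT pools and 20.7 ± 6.50 over the KO pools (SD, n = 3), with differences of 0.36, 0.48 and 0.03 in pairs 1 to 3.

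Plod1, a lysyl hydroxylase of collagen, gave 7.19, 7.23 and 10.5 CPM in WT and 6.54, 24.1 and 12.7 CPM in KO (chromosome 4, 147909753 to 147936767). KO 2 alone was far above the rest, and the log2 fold change of 0.80 (standard error 0.51, adjusted p = 1.00 by edgeR) was 0.07 in pairs 1 and 3 (standard error 0.29, adjusted p = 0.954 by edgeR). Plod3 was likewise highest in KO 2, at 31.9 CPM against 12.0 to 20.6 CPM elsewhere. The collagen gene Col1a1, a marker of stroma, was at 106 CPM in KO 2 against 0.489 to 23.8 CPM elsewhere. The 7 stroma markers summed to 237 CPM in KO 2, 61.9 to 117 CPM in WT and 35.6 and 81.8 CPM in the other KO libraries. Of these markers Col3a1 and Lepr were at 0 in some libraries, and 5 of 7 were highest in KO 2. The part of stromal cells in the values of Plod1, Plod3, P4ha1 and P4ha2 was not tested.

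Asph, a hydroxylase of aspartate and asparagine residues, had the highest level per length of the protein hydroxylases. It gave 146, 177 and 304 CPM in WT and 148, 138 and 273 CPM in KO (chromosome 4, 9448069 to 9669344). Between genotypes it differed by -0.17 on the log2 scale (standard error 0.40, adjusted p = 1.00 by edgeR). The genotypes overlapped, and both libraries numbered 3 were on top. The same gene also encodes the calcium-handling proteins junctin and junctate, which lack the enzyme domain, and counts per gene do not separate them. Jmjd6 was nearly level at a mean of 58.6 ± 7.82 CPM over the WT pools and 59.5 ± 9.62 over the KO pools (SD, n = 3). P4htm, a prolyl hydroxylase of the endoplasmic reticulum, and Ogfod1, which hydroxylates a ribosomal protein, were lower in 3 of 3 pairs, with log2 fold changes of -0.46 (standard error 0.51) and -0.34 (standard error 0.41).

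Related enzymes and partners gave no call over the 6 libraries either. Of 28 other iron and oxoglutarate dependent enzymes in the table, 19 were tested, 10 were higher in KO and 0 were called (median 0.00). Egln1, the oxygen sensor that marks HIF for destruction, was the one without overlap, where 4.03% of all genes were. It was also the one with an unadjusted p under 0.05 by edgeR, where 1.74% of all genes were. It gave 18.6, 4.89 and 14.0 CPM in WT and 25.4, 30.4 and 33.9 CPM in KO, a log2 fold change of 1.25 (standard error 0.48, edgeR adjusted p = 1.00), and 0.85 in pairs 1 and 3 (standard error 0.23, adjusted p = 0.103 by edgeR). The log2 differences were 0.45, 2.61 and 1.27 in pairs 1 to 3, largest in pair 2, where WT 2 was the lowest library.

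The enzymes that write the marks were set beside those that erase them. Of the 6 methyltransferases of histone H3 lysine 4, the mark that KDM5 enzymes remove, 5 were lower in KO over 6 libraries and 6 in pairs 1 and 3 (median -0.59). None was called, with Kmt2a at -0.45 over 6 libraries (edgeR adjusted p = 1.00) and -0.87 in pairs 1 and 3 (edgeR adjusted p = 0.0846). Their median transcript was longer than that of the JmjC genes, at 11912 nucleotides. The lysine 9 and 36 methyltransferases were higher in 2 of 5 and 2 of 5 genes, and the DNA methyltransferases with Uhrf1 in 3 of 4. The lysine 27 list, Ezh1 and Ezh2 with their partner subunits Eed and Suz12, was higher in 3 of 4 genes, with Ezh2 at 0.0061. Both FAD-dependent demethylases, Kdm1a and Kdm1b, which need no iron, were nearly level, at 0.04 and 0.07. No gene of these lists of partners had an unadjusted p under 0.05 over the 6 libraries. Of 12 genes that make or use 2-oxoglutarate, 5 were higher and 0 were called (median -0.02). Of the 8 collagen partners and substrates tested, 6 were higher over 6 libraries and 2 in pairs 1 and 3. In pairs 1 and 3 edgeR called 1 of them, the type I collagen gene Col1a2, which fell by 1.56 on the log2 scale (standard error 0.25, adjusted p = 0.00481 by edgeR). It was at 19.3 and 48.2 CPM in WT 1 and WT 3 and at 4.46 and 22.6 CPM in KO 1 and KO 3, and KO 2, outside that fit, was highest of all 6 libraries at 61.5 CPM.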

How the data were processed

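RNA-seq libraries of sorted MEP were amplified with the SMART-Seq v4 kit and tagmented with Nextera XT, per the labels' protocols, a route that keeps no strand. The authors deposited read counts per Ensembl gene, whole numbers with no scaling, and per the submitters' processing notes they used FastQC 0.11.5, STAR 2.5.3a and edgeR. The same notes list GRCm38.p3 and GRCh38.p3. How reads were assigned to genes, including those with several matches, is not given in the sources used here, so counts of near-identical copies and overlapping genes are uncertain. Coordinates are those of the deposited table, and the start and end of all 37 members were the same in GENCODE M21, from which the longest transcript per gene was taken.

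The filter was filterByExpr in edgeR 4.0.16 (minimum count 10, minimum total 15). Counts were scaled by TMM and the genotypes compared by edgeR's two-sided quasi-likelihood test in R 4.3.3, with Benjamini-Hochberg adjustment over all genes tested and a threshold of 0.05. Fold changes are KO over WT. A prior count of 2 was added for log2 values of single libraries. Total counts of 13402209 to 22986837 set the precision, and floors cover counting error only. A library is a pool of 3 mice, and p-values of fits without the replicate block measure the spread between these pools. With the block they measure how closely the KO minus WT differences of the pairs agree. Both kinds of fit also draw on the spread of other genes.

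Both genotypes carry the numbers 1 to 3. The deviations from the genotype means correlated at 0.53, 0.16 and 0.63 within numbers, and the numbers were taken as pairs. That pairing comes from the data, not from the labels. Correlations between different numbers are not given here, so these values do not show that equal numbers match better than unequal ones. The members, the lists and the rule for named genes were chosen with earlier results of these data known. The rule gave full values to the 2 members of smallest p of each family, the member of highest level per length of each family, any member without overlap and the X-linked members. Alternatives were the replicate block, DESeq2 1.42.0, limma 3.58.1 voom, other scalings and filters, leaving out each library, and, chosen after the data were seen, pairs 1 and 3 alone and removal of each library's trend with transcript length (lowess span 0.5). The scripts were tested on simulated counts.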

Additional observations from a re-analysis of the deposited data

How the results depend on the processing

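The call of 0 genes over 6 libraries became 6 with DESeq2 and 23 with DESeq2 and the replicate block, with 0 members in either, and the block in edgeR left it at 0. In pairs 1 and 3 the 117 genes called became 31 with upper quartile scaling, 22 without a scaling factor, 190 without a filter, 196 with limma voom, 22 with the length trend removed and 0 without the replicate block. The 2 members called lower there became 0 with upper quartile scaling, without a scaling factor, with the length trend removed and without the replicate block, and the 1 JmjC gene above 0 became 0 without a scaling factor, without a filter and without the block, and 3 with the length trend removed. The replicate block changed no other call. With each library left out in turn, the count of members higher in KO ran from 12 to 23.

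Log2 fold changes near 0 changed sign. With the length trend removed Kdm2b was at 0.00698, Kdm5c at 0.00685 (0.0122 with the replicate block), Alkbh3 at 0.0513 (0.0509 with the block) and Fto at 0.0245 (0.0152 with the block). Alkbh2 was at -0.00483 with limma voom, -0.0255 with upper quartile scaling, -0.00597 without a scaling factor and -0.00771 without a filter, and Jmjd6 at -0.00613 with upper quartile scaling. Fto was at 0.00233 with the replicate block, 0.000233 with limma voom and 0.00349 with DESeq2 and the block.

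Leaving out each library in turn turned the sign of the following members at some step. The range of the log2 fold change was Kdm2a -0.47 to 0.12, Kdm2b -0.40 to 0.37, Kdm7a -0.43 to 0.67, Phf2 -0.0408 to 0.85 and Phf8 -0.37 to 0.41. It was Kdm3b -0.59 to 0.27, Kdm4a -0.52 to 0.38, Kdm4b -0.51 to 0.22, Kdm4c -0.37 to 0.0239 and Kdm5a -0.53 to 0.00506. It was also Kdm5b -1.04 to 0.24, Kdm5c -0.55 to 0.78, Kdm6a -0.92 to 0.38, Kdm6b -0.87 to 0.11 and Kdm8 -0.0637 to 0.25. Further ranges were Tet1 -0.60 to 0.11, Tet2 -0.34 to 0.38, Tet3 -0.60 to 0.28, Alkbh1 -0.55 to 0.0568 and Alkbh2 -0.15 to 0.21. They were Alkbh3 -0.28 to 0.19, Alkbh5 -0.17 to 0.69, Alkbh7 -0.99 to 0.15, Alkbh8 -0.0588 to 0.20 and Fto -0.37 to 0.39. The last ranges were Jmjd6 -0.12 to 0.12, Plod3 -0.10 to 0.59 and Asph -0.55 to 0.21. The causes of these changes were not tested. Counts near the floor limit P4ha2, which a stricter filter removed.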
